A study of Mus musculus with 78 samples.

Results

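The renin-angiotensin genes Ren1, Agt, Ace, Agtr1a, Agtr1b, Enpep, Mme and Mas1 were followed through mouse kidney after diet and solvent exposure. They were taken by gene symbol from the deposited count files, where all 8 had a row among 24499 genes. Male C57BL/6J mice had eaten for 8 weeks a low-fat diet (LFD, 4% fat), a high-fat diet (HFD, 31% fat) or a diet short of methionine, choline and folate (MCD). They then received tetrachloroethylene (PERC, 300 mg/kg/d), a chlorinated solvent used in dry cleaning, or the vehicle, 5% Alkamuls-EL620 in saline at 5 mL/kg. In the single regimen 1 dose was given, and the PERC mice were killed after 24 h; the labels give no time for the vehicle mice of that regimen. In the repeated regimen 5 daily doses were given, and the mice were killed 4 h after the last. Messenger RNA of the pulverized kidney was sequenced from total RNA, so all cell types of the organ contributed.

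The systemic cascade starts when renin, secreted by juxtaglomerular cells of the kidney, cuts angiotensinogen to angiotensin I. Angiotensin-converting enzyme (ACE) trims that to angiotensin II, which acts on the AT1 receptors to constrict vessels and retain sodium. Membrane peptidases degrade or divert the peptides, and an angiotensin heptapeptide acts on the Mas receptor. Rodent proximal tubule carries ACE, neprilysin and aminopeptidase A on its brush border and makes angiotensinogen of its own.

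Ace and Mas1 were each called changed in more comparisons than any other member, and the 250 bases before their annotated starts are shown as the stretch next to which their transcripts begin. In the GENCODE annotation Ace lies at chr11:105967945-105989964 (GRCm38, plus strand), and Mas1 at chr17:12841079-12868143 (minus strand). The starts used are RefSeq's, and that of Ace lies inside the GENCODE span, so the Ace window runs past 105967945 to 105967947. The sequences are RefSeq's on GRCm38.p6, for chr11:105967698-105967947 on the plus strand and chr17:12868144-12868393 on the minus strand, and run 5′ to 3′. Capitals mark the GC box GGGCGG and the CCAAT box, each searched on both strands.
Ace: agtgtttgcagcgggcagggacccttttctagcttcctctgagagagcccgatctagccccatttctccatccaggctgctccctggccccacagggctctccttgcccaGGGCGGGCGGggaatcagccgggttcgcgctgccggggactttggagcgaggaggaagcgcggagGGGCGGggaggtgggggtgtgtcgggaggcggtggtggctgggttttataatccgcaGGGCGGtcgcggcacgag
Mas1: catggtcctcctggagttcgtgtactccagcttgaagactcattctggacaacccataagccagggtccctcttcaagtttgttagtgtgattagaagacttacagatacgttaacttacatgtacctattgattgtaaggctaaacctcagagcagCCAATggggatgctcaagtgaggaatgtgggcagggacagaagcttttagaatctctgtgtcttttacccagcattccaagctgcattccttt
Ace held 4 GC boxes, of which a pair overlap, and no CCAAT box, whereas Mas1 held 1 CCAAT box and no GC box. A GC box stood in 32.7% and a CCAAT box in 33.8% of 32851 RefSeq promoters of this length. The nuclear receptor element AGGTCA, found in 14% of them, was in neither window, nor were TGTTCT of the glucocorticoid receptor element (16.1%) and the cAMP response element core TGACGT (6.47%). The Ace sequence precedes the somatic transcript, and RefSeq lists a second, internal start for the gene. The 250 bases before that second start, not shown, held AGGTCA at −50 and a CCAAT box at −25.

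After leaving out 5 libraries with 2267 to 22029 counts in genes, 72 libraries remained. The single regimen had 5 vehicle and 4 PERC libraries on LFD, 4 vehicle and 5 PERC on HFD, and 3 vehicle and 4 PERC on MCD. The repeated regimen had 7 vehicle and 9 PERC libraries on LFD, 8 of each on HFD, and 7 vehicle and 8 PERC on MCD. Depth, as counts in genes, was 9047579 to 42022166 for single-dose and 8556278 to 28508827 for repeated-dose libraries. Kidney identity was plain: 10 of 10 markers of the early proximal tubule were detected in every group, with a summed level of 9396 to 16022 counts per 1000000 counts in genes, scaled by edgeR's TMM factors (CPM). The LFD PERC library of replicate 4, repeated regimen, lay with vehicle. It had 121 CPM of Cyp4a14, a fatty acid hydroxylase, against 892 to 7369 CPM in the other 8 and 56.5 to 182 CPM in the vehicle libraries. Member results for that group are given with and without it. In the single regimen HFD vehicle replicate 4 had 347 CPM of Cyp4a14, against 17.5, 20.8 and 33.2 CPM in the other HFD vehicle libraries. The HFD PERC libraries of that regimen held 193 to 760 CPM. That vehicle library was kept in the HFD vehicle group.

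Levels were set side by side per kilobase of exon, using the union of GENCODE exons, in the 7 vehicle libraries of LFD in the repeated regimen. Enpep stood highest at 51.9 ± 4.84 CPM per kilobase (SD, n = 7) and Ace next at 43.8 ± 2.23. Agt followed at 32.4 ± 3.4, Mme at 24.6 ± 3.13 and Agtr1a at 23.3 ± 1.6 CPM per kilobase. Mas1 lay far below at 1.15 ± 0.2, then Ren1 at 0.497 ± 0.17 and Agtr1b at 0.0184 ± 0.0205 CPM per kilobase. How reads shared by Ren1 and the near-identical Ren2 were counted is not stated, so the place of Ren1 is uncertain. The libraries of Enpep and Ace overlapped, as did those of Agt and Mme, Mme and Agtr1a, and Mas1 and Ren1. The order depends on the exon union, which was 11542 bases for Mme, 4706 for Enpep and 5287 for Ace. Without division by length Mme stood highest, at a mean of 284 CPM, against 244 for Enpep and 231 for Ace. All other values below are CPM without a length correction and are compared within a gene.

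Of the 8 members, 7 passed the filter on low counts and were tested in each regimen. Agtr1b did not pass. A call means an adjusted p under 0.05 by edgeR's quasi-likelihood test with Benjamini-Hochberg adjustment over all genes. After 5 doses Ace was the single member called, lower, on each diet. On LFD 6.91% of all genes were called, 2.43% lower, on HFD 9.18% and 4.22%, and on MCD 5.1% and 2.38%. As a mean over the 3 diets Ace and Mme were called lower, where 24.5% of all genes were called and 11.7% were lower.

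After 1 dose Mas1 was called lower on LFD, where 0.749% of genes were called and 0.217% were lower. No member was called on HFD (0.007% of genes) or MCD (0.028%) by edgeR or DESeq2. Before adjustment, 577 of 14280 genes had an edgeR p under 0.05 on HFD, with Ace and Mas1 among them. On MCD 708 of 14280 genes did, with Ace among them. As a mean over diets Ace and Mas1 were called lower, where 1.37% of genes were called and 0.427% were lower.

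Between diets in vehicle mice Mas1 alone was called, always lower. For HFD in the single regimen 1.64% of genes were called, 0.763% lower, and in the repeated regimen 6.64% and 2.78%. For MCD in the repeated regimen 3.48% were called, 1.37% lower. For MCD in the single regimen no member was called by edgeR or DESeq2 (0.476% of genes). Mas1 and Agtr1a were among 943 of 14280 genes with an edgeR p under 0.05 there before adjustment. No member was called for a difference in the PERC effect between diets, by edgeR or DESeq2, where 0.0137% of genes were called for HFD in the repeated regimen and 0 in the other 3. Nor was any for the difference between regimens, where 1.31% of genes were called.

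**Figure D1:**
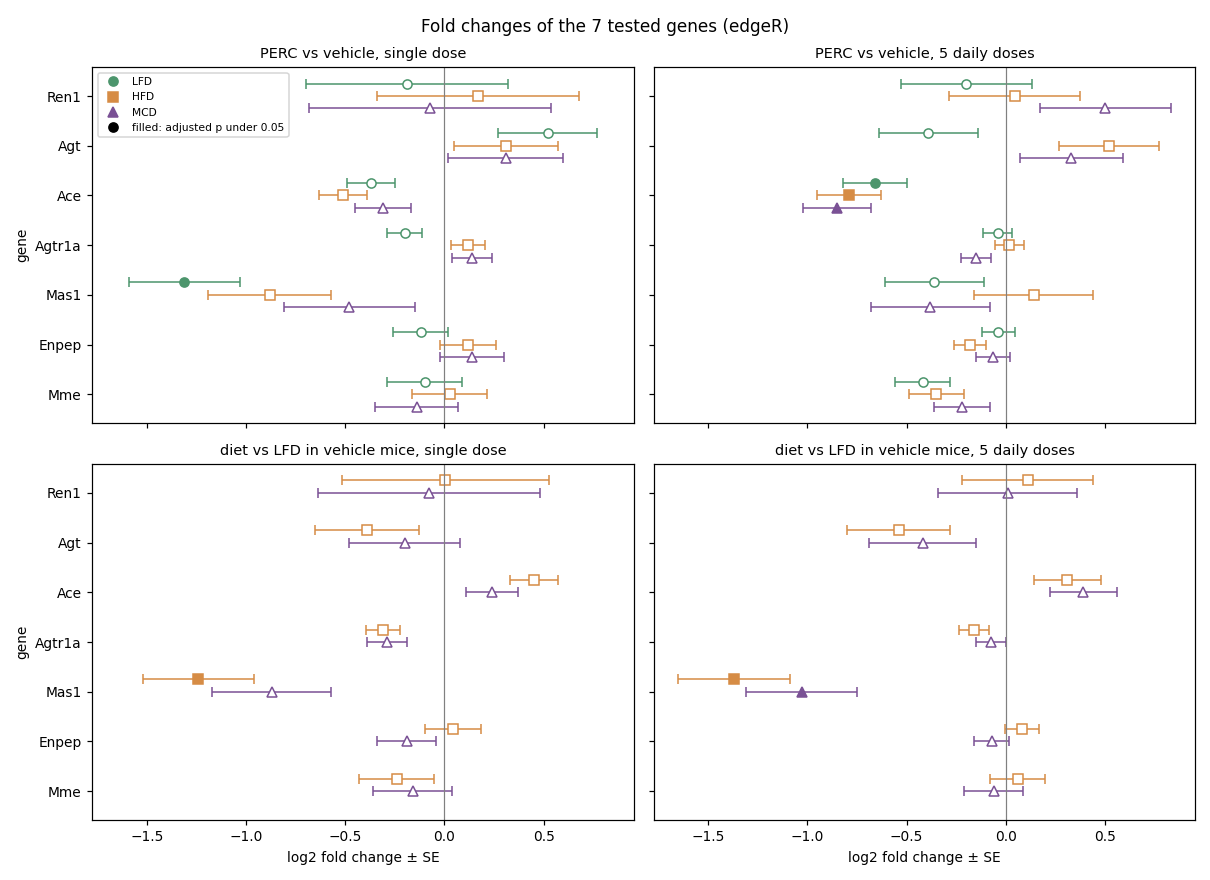
Log2 fold change (horizontal axis, ± SE) of the 7 tested genes (vertical axis) for PERC against vehicle on each diet and for HFD and MCD against LFD in vehicle mice, by regimen; filled symbols have an adjusted p under 0.05. Ace lies left of 0 with PERC in all 6 comparisons and right of 0 with both diets, and Mas1 lies left of 0 with both diets in both regimens.

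Ace, which makes angiotensin II, fell with 5 doses of PERC on all 3 diets. Its level in LFD vehicle libraries was 215 CPM at the lowest, 233 at the median and 244 at the highest, and in LFD PERC libraries 87.1, 135.2 and 229 CPM. Of the 9 PERC libraries 8 lay below every vehicle library, and the one within the vehicle range was replicate 4. The log2 fold change was −0.66 (SE 0.16, adjusted p = 0.00795, edgeR), and without replicate 4 it was −0.76 (adjusted p = 0.00076). When the fit held the LFD groups alone, the call was lost (log2 −0.66, adjusted p = 0.0589).

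On HFD the vehicle libraries ran from 238 to 341 CPM of Ace with a median of 292, and the PERC libraries from 97.5 to 230 with a median of 175. The groups did not overlap, a separation downward that 0.931% of all genes showed. Ace fell there by 0.79 on the log2 scale (SE 0.16, adjusted p = 0.000722, edgeR). On MCD the vehicle libraries ran from 264 to 339 CPM with a median of 302, and the PERC libraries from 110 to 214 with a median of 175. Again the groups did not overlap (0.63% of all genes), and Ace fell by 0.85 (SE 0.17, adjusted p = 0.000666, edgeR). Averaged over the diets the PERC level was 0.589 times that of vehicle (log2 −0.76, SE 0.093, adjusted p = 2.06e-08, edgeR). The PERC effect on HFD differed from that on LFD by −0.13 (SE 0.23, adjusted p = 0.954) and on MCD by −0.19 (SE 0.23, adjusted p = 0.992), so no difference between diets was detected. Within each of the 5 sequencing lanes the PERC libraries were lower on every diet, by 0.13 to 1.37 in log2 CPM.

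Markers of other cell types moved in the same libraries. Among adipocyte markers Adipoq was called higher on LFD alone of the diets, and the HFD calls were Lipe, Plin4, Pnpla2 and Car3. Whether fat cells or lipid genes of other cells rose was not tested. Of the 11 adipocyte markers, 6 were called higher with 5 doses on LFD, 4 on HFD and 1 on MCD (Lipe), and none lower. Their summed level was 214 to 311 CPM in LFD vehicle and 271 to 764 in LFD PERC libraries, 195 to 411 and 317 to 807 on HFD, and 217 to 365 and 287 to 421 on MCD. With the adipocyte level as a covariate Ace stood at −0.74 on LFD (adjusted p = 0.0382), −0.82 on HFD (0.000775) and −0.87 on MCD (0.000686). Of 10 markers of the late (S3) proximal tubule, 2 were called lower on LFD and on HFD, and 1 lower and 1 higher on MCD. The summed S3 level was 3553 to 4899 CPM in LFD vehicle and 1828 to 5086 in LFD PERC libraries, 4856 to 6491 and 2053 to 4988 on HFD, and 4419 to 6106 and 2169 to 6295 on MCD. As a mean over diets the S3 markers Slc22a7, Slc7a13, Atp11a and Slc5a8 fell by 2.49, 0.96, 0.49 and 0.30. Slc7a12 and Acox2 rose by 0.86 and 0.18. The part of the S3 markers in the Ace result was not tested. In whole kidney, fewer cells of a type and less RNA per cell cannot be told apart. The antisense gene Gm11651 overlaps 5.58% of the Ace exons and had a median of 0.103 CPM, against 87.1 CPM or more for Ace.

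After 1 dose Ace was lower with PERC on each diet, but no diet alone gave a call. The LFD vehicle libraries held 292, 253, 252, 191 and 336 CPM and the LFD PERC libraries 179, 210, 246 and 185. These overlapped, with a log2 fold change of −0.37 (adjusted p = 0.227). HFD vehicle libraries held 338, 380, 369 and 363 CPM, and HFD PERC libraries 232, 275, 261, 278 and 231. All 5 PERC libraries lay below the vehicle ones, as for 0.875% of all genes, at a log2 fold change of −0.51 (adjusted p = 0.361). In MCD vehicle libraries Ace was 349, 298 and 293 CPM, and in MCD PERC libraries 225, 252, 272 and 262. These did not overlap either (3.25% of all genes), at a log2 fold change of −0.31 (adjusted p = 0.964). The mean over the diets fell by 0.40 (SE 0.074, adjusted p = 0.00403, edgeR). In the same mean 2 of the 10 S3 markers fell and none rose, Slc7a13 by 0.57 (adjusted p = 0.00815) and Slc22a7 by 0.76 (0.0498). The S3 sum was 4212 to 5955 CPM in vehicle and 2571 to 3958 in PERC libraries on LFD, 4747 to 5835 and 4363 to 5679 on HFD, and 4776 to 6174 and 3951 to 4622 on MCD. The part of these markers in the single-dose results of Ace and Mas1 was not tested. The effect after 5 doses minus that after 1 was −0.38 (SE 0.14, adjusted p = 0.197), which missed the threshold. The regimens also differ in the time after dosing and in sequencing lanes, which cannot be told apart from the number of doses.

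In vehicle mice Ace was higher by mean on HFD and MCD than on LFD, without a call in the edgeR fit of all groups. HFD minus LFD was 0.45 in the single regimen (SE 0.12, adjusted p = 0.0579), where all 4 HFD libraries exceeded all 5 LFD libraries, as for 3.18% of genes. DESeq2 (adjusted p = 0.0202) and a lane term (0.0434) each made that a call, as did leaving out LFD vehicle replicate 5 (0.55, adjusted p = 0.013). MCD minus LFD was 0.24 there (SE 0.13, adjusted p = 0.873). In the repeated regimen HFD minus LFD was 0.31 (adjusted p = 0.281) and MCD minus LFD 0.39 (adjusted p = 0.278). The 7 MCD libraries all exceeded the LFD ones, as for 1.45% of genes. Fitted with those vehicle groups alone the adjusted p was 0.00435 for HFD and 0.00116 for MCD. Each of the 5 lanes had the higher value on HFD, and each on MCD.

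**Figure D2:**
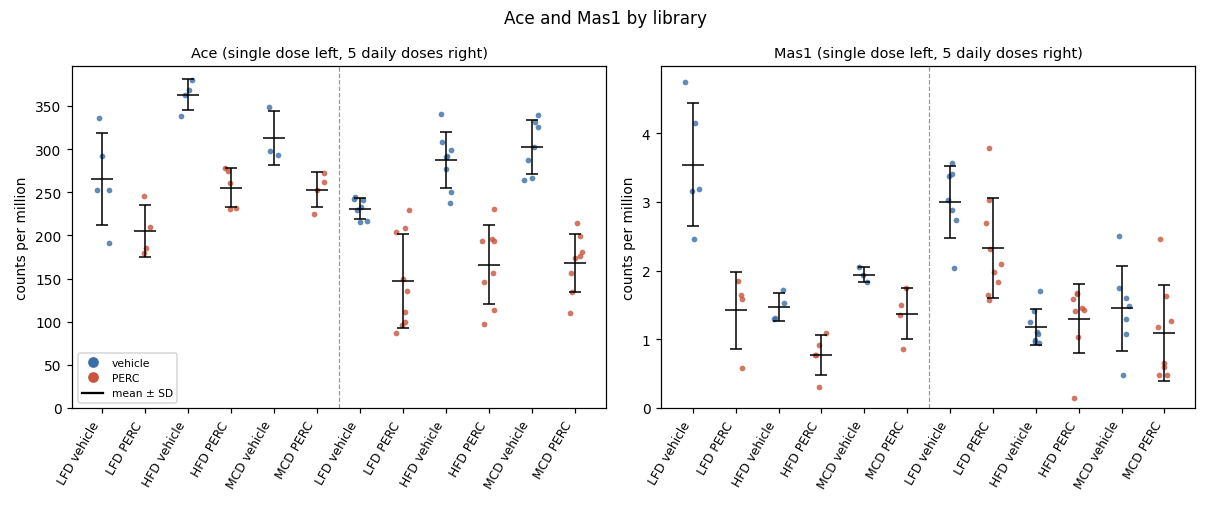
Ace (left) and Mas1 (right) in CPM, 1 point per library, by diet and treatment on the horizontal axis, with mean ± SD in black; the dashed line separates the single from the repeated regimen. Ace is lower in PERC than in vehicle libraries in every pair of groups by mean, and Mas1 is highest in the LFD vehicle groups, at means of 3.54 and 3 CPM.

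Mas1, the heptapeptide receptor, was lower on HFD than on LFD in both regimens. It was scarce, with 3 to 81 counts per library, so counting error is large in any one library. In vehicle libraries of the single regimen LFD held 3.19, 3.16, 2.46, 4.74 and 4.14 CPM, HFD 1.31, 1.72, 1.3 and 1.53, and MCD 1.83, 2.05 and 1.94. The HFD and MCD libraries all lay below the LFD ones, which 2.51% and 2.29% of all genes showed. HFD minus LFD was −1.24 (SE 0.28, adjusted p = 0.0189, edgeR), a level 0.422 times that of LFD. The hepatocyte marker Ttr was higher by 1.20 on HFD in these mice (adjusted p = 0.00451, edgeR) and by 1.34 on MCD (0.0128). No other gene of its list was called between these diets. The list summed to a median of 114 CPM on LFD, 242 on HFD and 274 on MCD. Ttr was its highest gene, at a median of 110 CPM over all libraries against 17.2 for Alb, the next. For Mas1 MCD minus LFD was −0.87 (SE 0.30, adjusted p = 0.403) and was not called. The HFD call in the single regimen was lost without HFD vehicle replicate 1, 4 or 5 or LFD vehicle replicate 4, at adjusted p of 0.0553 to 0.0713.

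In the repeated regimen the LFD vehicle libraries ran from 2.03 to 3.56 CPM of Mas1 with a median of 3.03, and the HFD ones from 0.947 to 1.7 with a median of 1.09. All 8 HFD libraries lay below all 7 LFD libraries, as for 1.32% of genes. Mas1 fell by 1.37 on the log2 scale (SE 0.28, adjusted p = 0.000982, edgeR), and leaving out any single library kept the call, with an adjusted p of at most 0.00298. MCD vehicle libraries ran from 0.484 to 2.5 CPM with a median of 1.48, and 6 of the 7 lay below every LFD library. MCD minus LFD was −1.03 (SE 0.28, adjusted p = 0.0255, edgeR). That call was lost without MCD vehicle replicate 4 (adjusted p = 0.0627) or 6 (0.0596), without LFD vehicle replicate 5 (0.0512), and with the adipocyte level as a covariate (0.196). Among 11 adipocyte markers, 5 were called higher on HFD and 3 on MCD in these vehicle mice, and Ttr, a transport protein among the 8 hepatocyte markers, was higher by 1.36 and 1.77. The hepatocyte markers, of which Ttr alone was called, summed to a median of 92.5 CPM on LFD, 206 on HFD and 224 on MCD. Their part in the Mas1 result was not tested. All 5 lanes had lower Mas1 on HFD and on MCD.

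With 1 dose of PERC, Mas1 fell on LFD. The 4 PERC libraries held 1.59, 1.65, 0.587 and 1.85 CPM, all below the 5 vehicle libraries given above, as for 0.987% of genes. The log2 fold change was −1.31 (SE 0.28, adjusted p = 0.0222, edgeR). It was no longer called without LFD PERC replicate 1 (adjusted p = 0.0573) or 4 (0.135), without LFD vehicle replicate 4 (0.0613) or 5 (0.0669), with the adipocyte covariate (0.0647), or fitted on the LFD groups alone (0.421). Adipocyte markers summed to 981 CPM in PERC replicate 1 of this group, against 237 to 492 in the other 3 and 228 to 350 in vehicle libraries.
On HFD the PERC libraries held 0.766, 1.09, 0.767, 0.921 and 0.301 CPM and on MCD 1.35, 0.865, 1.74 and 1.5, again below all vehicle libraries (0.875% and 3.25% of genes). Those fold changes were −0.88 (adjusted p = 0.955) and −0.48 (adjusted p = 0.999). The mean over diets fell by 0.89 (SE 0.18, adjusted p = 0.00774, edgeR), with lower values in all 3 lanes on each diet.

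After 5 doses Mas1 was not called on any diet. Its log2 fold change was −0.36 on LFD (SE 0.25, adjusted p = 0.455; −0.30 without replicate 4, adjusted p = 0.512), 0.14 on HFD (SE 0.30, adjusted p = 0.851) and −0.38 on MCD (SE 0.30, adjusted p = 0.592). The PERC effect after 5 doses minus that after 1 was 0.68 (SE 0.27, adjusted p = 0.216), so the regimens were not shown to differ.

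Agt, the angiotensin precursor, was called in no comparison. Its libraries spread widely with PERC in the HFD and MCD groups after 5 doses and in the LFD group after 1 dose. After 5 doses HFD PERC libraries ran from 27 to 140 CPM with a median of 53, against 32.8 to 50.1 in vehicle. MCD PERC libraries ran from 31.4 to 113 with a median of 40.6, against 37 to 58.8. HFD PERC replicate 6 (140 CPM) and MCD PERC replicates 6 and 7 (113 and 110) were the highest of the regimen, and the first and last of them also had the lowest Enpep of their groups, at 172 and 156 CPM. On LFD the PERC libraries ran from 29.9 to 60.7 CPM and the vehicle libraries from 53.4 to 72.2. The log2 fold changes were −0.39 on LFD (SE 0.25, adjusted p = 0.411; −0.44 without replicate 4, adjusted p = 0.294), 0.52 on HFD (SE 0.25, adjusted p = 0.214) and 0.33 on MCD (SE 0.26, adjusted p = 0.588). The PERC effect on HFD minus that on LFD was 0.91 (SE 0.36, adjusted p = 0.804, edgeR).

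Among single-dose mice Agt was 37.7 to 124 CPM in LFD PERC libraries and 42.2 to 70.5 in LFD vehicle, at a log2 fold change of 0.52 (adjusted p = 0.54). On HFD it was 41 to 64.5 CPM with PERC and 36.4 to 52.2 in vehicle, and on MCD 55.3 to 69.8 and 26.4 to 66.9. The fold change was 0.31 on both, and the mean over diets was 0.38 (SE 0.16, adjusted p = 0.348). In vehicle mice of the repeated regimen Agt was lower on HFD than on LFD without overlap (1.32% of genes), at −0.54 (SE 0.26, adjusted p = 0.225), and on MCD at −0.42 (SE 0.27, adjusted p = 0.549). In fits of those vehicle groups alone the adjusted p was 0.00145 for HFD and 0.00934 for MCD. In the single regimen the values were −0.39 for HFD (adjusted p = 0.718) and −0.20 for MCD (adjusted p = 1).

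Mme encodes neprilysin, which removes angiotensin I and many other peptides. As a mean over diets it fell with 5 doses by 0.33 (SE 0.082, adjusted p = 0.00207, edgeR), and stayed called without any single library. On LFD vehicle libraries ran from 238 to 331 CPM with a median of 273 and PERC libraries from 147.1 to 261 with a median of 234, with 6 of 9 below all vehicle. The LFD fold change was −0.42 (SE 0.14, adjusted p = 0.0608), and it was called without PERC replicate 4 (0.0413) or 5 (0.0459) and by DESeq2 (adjusted p = 0.0421). HFD stood at −0.35 (adjusted p = 0.108) and MCD at −0.22 (adjusted p = 0.491). With 1 dose it was −0.10 on LFD, 0.026 on HFD and −0.14 on MCD, with a mean of −0.07 (SE 0.11, adjusted p = 0.935). HFD minus LFD in vehicle mice was −0.24 with single and 0.059 with repeated dosing, and MCD minus LFD −0.16 and −0.062, none of them called.

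Enpep, or aminopeptidase A, which turns angiotensin II into angiotensin III, was called nowhere. Its group means ran from 187 to 258 CPM. With 5 doses it was −0.039 on LFD (−0.037 without replicate 4), −0.18 on HFD and −0.064 on MCD, and with 1 dose −0.12, 0.12 and 0.14. HFD minus LFD in vehicle mice was 0.042 with single and 0.081 with repeated dosing, and MCD minus LFD −0.19 and −0.072. The mean over diets was −0.10 with 5 doses (SE 0.048, adjusted p = 0.151) and 0.045 with 1 dose (SE 0.083, adjusted p = 0.946). One library stood apart, MCD PERC replicate 7 in the repeated regimen at 156 CPM, where the other 7 held 218 to 245.

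Agtr1a, the main AT1 receptor of mouse kidney, varied little, from 40.1 to 75 CPM over all libraries. With 5 doses its log2 fold change was −0.041 on LFD (SE 0.073, adjusted p = 0.818; −0.076 without replicate 4, adjusted p = 0.555), 0.017 on HFD (SE 0.073, adjusted p = 0.931) and −0.15 on MCD (SE 0.075, adjusted p = 0.279). In vehicle mice of the single regimen it was 68.1, 64.8, 73, 71.3 and 72.1 CPM on LFD and 53.3, 57.3, 55.2 and 59.2 on HFD. The HFD and LFD values did not overlap (2.51% of genes), at −0.31 (SE 0.087, adjusted p = 0.0741). DESeq2 (adjusted p = 0.0187), a lane term (0.00928) and a fit of those groups alone (0.0425) each made that a call. MCD libraries held 56.1, 56.5 and 59.4 CPM, also below LFD (2.29% of genes), at −0.29 (adjusted p = 0.344). With 1 dose on LFD the PERC libraries held 48, 72.1, 61.5 and 61.2 CPM, 3 of 4 below all vehicle libraries, at −0.20 (SE 0.087, adjusted p = 0.442). On MCD they held 55.4, 64.7, 62.9 and 68.6, at 0.14 (SE 0.10, adjusted p = 0.999). The 5 HFD PERC libraries lay at 60 to 62.6 CPM, above their 4 vehicle libraries (0.861% of genes), at 0.12 (SE 0.087, adjusted p = 1). In the repeated regimen HFD minus LFD was −0.16 (SE 0.075, adjusted p = 0.226) and MCD minus LFD −0.075 (SE 0.078, adjusted p = 0.778). Agtr1b, the second rodent AT1 receptor gene, had 91 counts in all 72 libraries, 0 to 4 in any one, and none in 25. At that depth a change in it was not detectable.

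**Figure D3:**
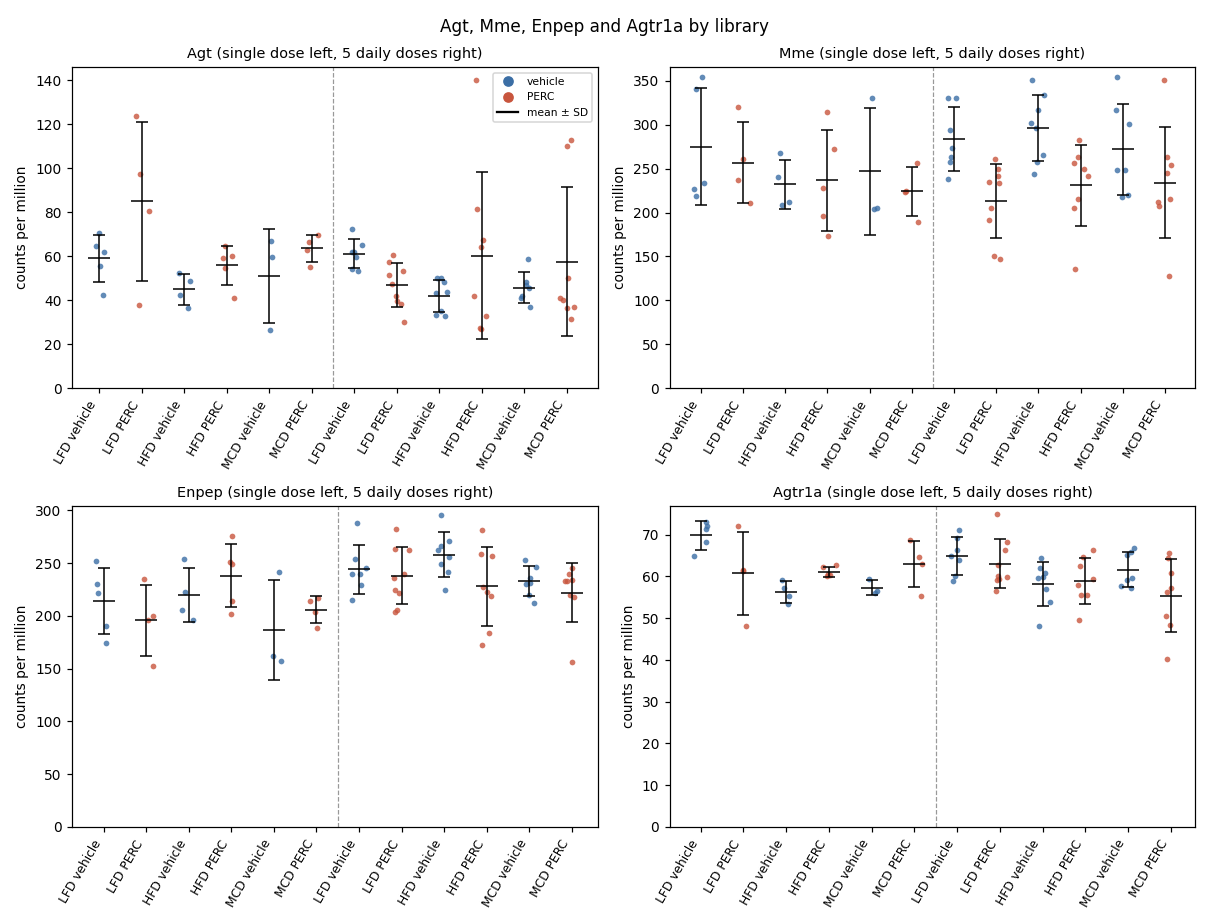
Agt, Mme, Enpep and Agtr1a in CPM, 1 point per library, by diet and treatment, with mean ± SD in black and the single regimen left of the dashed line. Agt reaches 140 CPM in an HFD PERC library of the repeated regimen, while Agtr1a stays between 40.1 and 75 CPM throughout.

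Ren1, which encodes renin, had few counts in these libraries, with 3 to 44 each and a median of 0.91 CPM. The count files also hold a row for Ren2, a renin gene of near-identical sequence, with 74 counts in all. That row does not show that these mice carry Ren2. Reads that align to several places were a median 21.7% of reads, and ambiguous reads 0.685%. The labels do not say how reads shared by Ren1 and Ren2 were counted, and the Ren1 level is uncertain. With 5 doses its log2 fold change was −0.20 on LFD (SE 0.33, adjusted p = 0.797; −0.30 without replicate 4, adjusted p = 0.646), 0.045 on HFD (SE 0.33, adjusted p = 0.96) and 0.50 on MCD (SE 0.33, adjusted p = 0.485). The mean over diets was 0.11 (SE 0.19, adjusted p = 0.728), with a normal 95% interval of −0.26 to 0.49. With 1 dose it was −0.19 on LFD, 0.17 on HFD and −0.074 on MCD. In vehicle mice HFD minus LFD was 0.0054 with single and 0.11 with repeated dosing, and MCD minus LFD −0.078 and 0.0098. Of 16 renin-cell and mural markers 1 fell and none rose in the mean over diets with 5 doses. In that mean 24.5% of all genes were called and 11.7% were lower. On MCD Cnn1 of the list was called lower by 0.76 (adjusted p = 0.0314, edgeR), where 2.38% of all genes were lower. The summed level of the list was 315 to 564 CPM over all libraries.

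**Figure D4:**
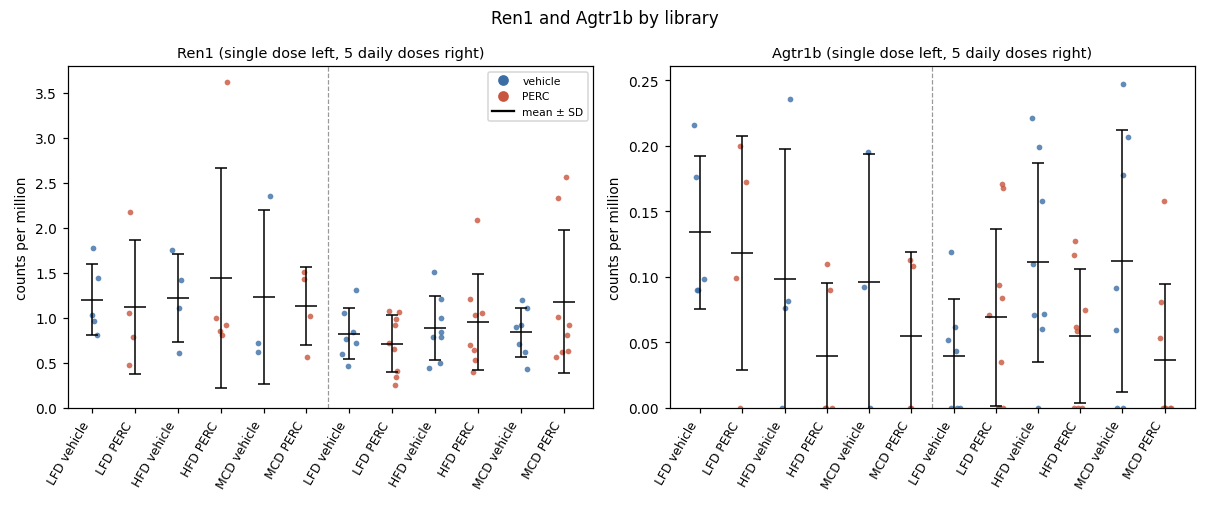
Ren1 (left) and Agtr1b (right) in CPM, 1 point per library, by diet and treatment, with mean ± SD in black and the single regimen left of the dashed line. All group means of Ren1 lie between 0.715 and 1.44 CPM, and Agtr1b stays at or under 0.247 CPM.

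Other genes of the pathway, 20 in all, had 13 members tested. With 5 doses, as a mean over diets, 1 rose and 5 fell, where 24.5% of all genes were called and 11.7% were lower. The list median was −0.093 against 0.003 for all genes. Prcp, a carboxypeptidase that cuts angiotensin II, rose by 0.17 (SE 0.043, adjusted p = 0.00255, edgeR). Anpep, or aminopeptidase N, fell by 0.19, Ctsa, lysosomal cathepsin A, by 0.15, Agtrap, which binds the AT1 receptor, by 0.14, Nln, neurolysin, by 0.11 and Prep, prolyl endopeptidase, by 0.08. In vehicle mice of the repeated regimen HFD had higher Anpep (0.53, adjusted p = 6.65e-06) and Prcp (0.32, 0.00475) and lower Ctsa (−0.38, 7.14e-05) than LFD. MCD had higher Anpep (0.39) and lower Ctsa (−0.31). In the single regimen the call on the list was Anpep, higher on HFD (0.56, adjusted p = 0.00349, edgeR). Cyp11b2, aldosterone synthase, had 1 count over all libraries, and the adrenal gene Cyp11b1 had none in any group. Of the 8 genes on the adrenal list Akr1d1 had a median of 53.3 CPM over all libraries and Star 6.74, and no other exceeded 0.189. With 5 doses Akr1d1 fell by 0.50 as a mean over diets (adjusted p = 0.000204, edgeR), and was called lower on LFD and HFD.

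Brush border proteins other than the members, 14 of them tested and Anpep again among them, held 1 gene that rose and 8 that fell with 5 doses as a mean over diets. The list median was −0.21 against 0.003 for all genes, of which 24.5% were called and 11.7% were lower. Those with the smallest p were Treh, trehalase (−0.30), Mep1a and Mep1b, the meprin subunits (−0.44 and −0.52), and Tmem27, collectrin (−0.39). Of 25 tested genes on renin control 2 rose and 1 fell, a smaller share than the 24.5% of all genes called in that mean. Ptgs2, a cyclooxygenase, rose by 0.90 (SE 0.26, adjusted p = 0.00698, edgeR), Ptger4 rose by 0.20 and Piezo2 fell by 0.18. Ptgs2 was scarce, at 0.124 to 5.77 CPM with a median of 1.25 over all libraries, and was called on no single diet. Of 16 mineralocorticoid pathway genes 1 rose and 1 fell: Sgk1, the kinase induced by aldosterone and glucocorticoid, rose by 0.98 (SE 0.15, adjusted p = 1.54e-06, edgeR), and Atp1b1, a sodium pump subunit, fell by 0.10. Sgk1 rose by 1.39 on HFD and 1.10 on MCD and was not called on LFD. Among cell types, 4 of 10 markers of the early (S1 and S2) proximal tubule fell in that mean (Lrp2, Slc22a6, Slc34a1 and Slc7a7) and Slc5a12 rose. Of 9 podocyte markers 1 fell, of 11 endothelial markers 2 rose, of 6 tested blood and immune markers Ptprc fell by 0.29, and of 5 tested hepatocyte markers Ttr fell by 0.70 and Serpina1a rose by 0.98. Their part in the results on Ace and Mme was not tested.

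Across the 72 libraries the members' deviations from their group means were also compared, as a description over libraries that share sequencing lanes and differ in depth. Enpep and Mme varied together (Pearson r = 0.739, Spearman rho 0.686), and Agt ran against both (r = −0.739 with Enpep and −0.585 with Mme). For Ace and Agt r was −0.015 (rho 0.117). The genes most like each member by Pearson r were Bdh1 (0.855), Galns (0.842) and Kap (0.829) for Ace. For Agt they were Apoe (0.866), Cntfr (0.861) and Pex14 (0.847). Mme was most like Ghr (0.922), Mut (0.869) and Phkb (0.860), and Enpep like Mut (0.863), Pigg (0.852) and Tinag (0.848). Agtr1a had Fbln5 (0.740), Htra1 (0.688) and Trabd2b (0.684). For the scarce Mas1 they were Smim3 (0.508), Dynll1 (0.471) and Chrna4 (0.471), and for Ren1 Cd320 (0.633), Slc25a3 (0.623) and Tmem147 (0.604). Agtr1b, which did not pass the filter, was not ranked.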

How the data were processed

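Kidney mRNA libraries were prepared with a stranded kit, per the labels' protocols. The authors deposited raw read counts per gene symbol for each library. The submitters' processing notes name TopHat2 2.0.13, HTSeq, Trimmomatic, DESeq2 and bcl2fastq 2.17.1.14, and the build GRCm38/mm10; annotation and strand setting are not given in the sources used here. Of 78 samples, 77 had a file here, 1 was not analysed here and 5 held under 1000000 counts in genes and were left out. Reads in genes were a median 53.1% of each file's reads, and rows that name no gene (no feature 22.9%, several places 21.7%, ambiguous 0.685%, not aligned 2.28%) stayed out of library sizes.

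Each regimen was fitted over its 6 groups with edgeR 4.0.16 in R 4.3.3 (TMM factors, filterByExpr, robust quasi-likelihood), which tested 14280 genes for single and 14614 for repeated dosing. The regimens were compared in a fit over 12 groups. P-values were adjusted over all genes by Benjamini-Hochberg with a threshold of 0.05. The SE was taken as |log2 fold change| over √F. Scripts were tested on simulated data. Alternatives were DESeq2 1.42.0, its size factors, no filter, the shallow libraries kept, a lane term, an adipocyte term, fits of the compared groups alone and each library left out. Lanes were read from the libraries' names. Replicate numbers follow the order of deposit. The labels give each sample its own number but do not say that it numbers mice, so p-values measure the spread between these libraries, which may be technical.

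The members and gene lists were chosen with earlier results of these data known. The rule for named genes took the 8 members, other pathway genes where called, at most 4 genes of each further list by smallest p, and the 3 genes most like each member tested; genes of cell type lists were named after their values were seen. Cell type lists are given by counts and summed CPM. One further gene of the pathway is not reported here.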

Additional observations from a re-analysis of the deposited data

Results flagged for a closer look

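Of 88 groups of 4 to 10 libraries tested with Dixon's criterion, 3 held a library far from the others; chance flags about 1 in 20 groups. Ren1 was 3.62 CPM in HFD PERC replicate 3 of the single regimen, where the nearest of the others held 1 CPM. Enpep was 156 CPM in MCD PERC replicate 7 of the repeated regimen, against 218 CPM in the nearest. Mas1 was 0.149 CPM in HFD PERC replicate 7 of the repeated regimen, on 3 counts, against 1.03 CPM in the nearest.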

How the results depend on the processing

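Over all settings other than leaving out a library, 731 member results kept their direction and side of the threshold, 10 gained and 4 lost a call, and 11 changed sign, none of them called. The cause was not tested for any of them. Fitting only the groups compared changed the number of members called from 1 to 0 for PERC on LFD in both regimens, and to 3 for HFD and 3 for MCD against LFD in repeated vehicle mice and 2 for HFD in single ones. DESeq2 called 3 members for HFD against LFD in single vehicle mice and 2 for PERC on LFD in the repeated regimen, and a lane term called 3 in the former. With the adipocyte term 0 were called for PERC on LFD in the single regimen and 0 for MCD against LFD in repeated vehicle mice. Without LFD PERC replicate 4, an alternative chosen after seeing the data, 2 were called on LFD in the repeated regimen. Leaving out each library gave 0 to 1 for PERC on LFD and 0 to 2 for HFD against LFD in the single regimen, and 1 to 2 for PERC on LFD and 0 to 1 for MCD against LFD in the repeated regimen.

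Sign changes by setting were as follows. With the adipocyte term Mme with PERC in the single regimen was 0.012 on LFD, −0.0058 on HFD and −0.018 for HFD minus LFD, and Ren1 for HFD against LFD −0.25. With the lane term Ren1 for that comparison was −0.016, Agtr1a as a mean over diets −5.2e-05, Mme for the MCD minus LFD effect 0.061, and Ren1 for MCD against LFD in the repeated regimen −0.048. With shallow libraries kept Ren1 was −0.0047 and Mme 0.039 in the same comparisons, and with only the groups compared Ren1 was −0.012.

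Ranges over left-out libraries crossed 0 for these. In the single regimen Ren1 ran from −0.64 to 0.084 with PERC on LFD, −0.43 to 0.40 on HFD, −0.52 to 0.72 on MCD and −0.23 to 0.23 as their mean. Ren1 also ran from −0.22 to 0.27 for HFD and −0.86 to 0.37 for MCD against LFD, and from −0.24 to 0.80 and −0.32 to 0.90 for the HFD and MCD minus LFD effects. Mme ran from −0.22 to 0.011, −0.10 to 0.12, −0.26 to 0.13 and −0.11 to 0.026 with PERC, and −0.0016 to 0.24 and −0.16 to 0.22 for the effects. Agtr1a as the mean ran from −0.013 to 0.05, Enpep for HFD against LFD from −0.036 to 0.11 and Agt for MCD against LFD from −0.46 to 0.11. For the HFD and MCD minus LFD effects Agt ran from −0.45 to 0.031 and −0.52 to 0.043, and Ace for the latter from −0.04 to 0.16. In the repeated regimen Enpep ran from −0.073 to 0.0044 on LFD and −0.085 to 2.6e-04 on MCD, Ren1 from −0.21 to 0.20 and Agtr1a from −0.018 to 0.057 on HFD. Ren1 ran from −0.037 to 0.27 for HFD and −0.10 to 0.17 for MCD against LFD, from −0.0025 to 0.40 for the HFD minus LFD effect, and from −0.12 to 0.34 between regimens. For the MCD minus LFD effect Enpep ran from −0.069 to 0.042 and Mas1 from −0.29 to 0.17.

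No paired analysis was possible because the labels give no replicate numbers that pair samples across groups; lanes, which the groups share, were fitted as a term instead. Genes called in all moved from 107 to between 8 (only the groups compared) and 286 (lane term) for PERC on LFD in the single regimen, from 1 to 13 on HFD and 4 to 43 on MCD (DESeq2), and from 195 to 364 for their mean (lane term). For HFD against LFD in single vehicle mice they moved from 234 to 438 (lane term), and for MCD from 68 to between 12 (only the groups compared) and 120 (DESeq2). In the repeated regimen the adipocyte term gave 215 in place of 1010 for PERC on LFD, 467 in place of 970 for HFD and 167 in place of 508 for MCD against LFD. Fits of only the groups compared gave 1703 and 897 for those diets. Leaving out each library gave 640 to 1798 for PERC on LFD in the repeated and 19 to 285 in the single regimen. Low counts limit Ren1, Mas1 and Agtr1b, and how reads shared by Ren1 and Ren2 were counted is not stated. Without a filter Agtr1b was tested and not called.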
